A study of Mus musculus with 9 samples.

Results

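The 59 genes described here bear symbols used for parts or regulators of motile cilia, out of 21212 rows of an expression table of cultured mouse microglia. They were chosen by symbol: every row whose symbol starts with Dnah, Dnai, Cfap, Rsph or Tekt, and the genes Foxj1, Gmnc, Mcidas, Spag6l, Spag16, Spag17, Hydin and Tppp3. The set was proposed because such genes had been seen to differ between replicate 3 and the other replicates in PBS and in LPS, so that difference is given below as a description and is not tested. A symbol alone does not show that a gene serves motile cilia, and some Cfap genes could be placed in no structure class. Symbols follow an older annotation, in which Dnai1 and Dnai2 are named Dnaic1 and Dnaic2. Cilia genes known there by unrelated older names are not among the 59.

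Microglia, the resident macrophages of the brain, were prepared from brains of wild-type CD-1 pups (P0-P1) of a pooled litter and isolated on a Percoll gradient. All cells were grown for 5 to 7 days with 10 ng/ml each of the growth factors M-CSF and GM-CSF and kept without serum overnight. They then received PBS as the resting control, 100 ng/ml of LPS, a bacterial lipid that drives the inflammatory (M1) state, or 20 ng/ml of IL-4, a cytokine that drives the alternative (M2) state, for 4 h. Each condition had 3 Affymetrix Mouse Exon 1.0 ST arrays, and the values are log2 expression after RMA. Whether each array stands for a preparation of its own is not stated, and the p-values therefore cover the spread among the arrays alone, and that spread may be technical.

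The first principal component over all rows held 71.4% of the variance and the second 16%. On the second, PBS 3 scored 16.59 and the other PBS replicates -28.29 and -26.81. LPS 3 scored 30.94 there, and the other LPS replicates -10.47 and -12.45. The IL-4 arrays scored 6.18, 13.21 and 11.1, between PBS 3 and the other PBS replicates. The replicate 3 difference in PBS and LPS was thus not limited to the genes described here. Array medians differed by condition, from 7.32 to 7.37 in PBS, 7.2 to 7.26 in LPS and 7.37 to 7.39 in IL-4. Of 16 measured microglial markers, 2 (Siglech and Gpr34) were among the 7070 dimmest rows, called dim below (mean log2 of at most 6.2), while Tyrobp, a signalling adaptor of microglia, measured 12.45, 12.50 and 12.41 in PBS. Tyrobp was the exception in PBS, where 15 of the 16 markers were higher in replicate 3 than in both others. In LPS 10 of the 16 were.

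A motile cilium beats because dynein arms slide the doublet microtubules of its core, the axoneme, against each other, while radial spokes and a central apparatus coordinate the stroke. In the brain such cilia are borne in tufts by ependymal cells, which line the ventricles and move cerebrospinal fluid. Gmnc and Mcidas switch on the multiciliated state, and Foxj1 and the RFX factors then drive the axoneme genes. Sperm tails share the axoneme but use some paralogs of their own.

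The members were higher in replicate 3 than in both other replicates in PBS and in LPS, and not in IL-4. Replicate 3 exceeded both others for 54 of 59 members in PBS, for 53 in LPS and for 52 (88.1%) in both, against 21.8% of all rows. The median difference between replicate 3 and the mean of replicates 1 and 2 was 1.19 in PBS, 1.25 in LPS and 0.02 in IL-4 on the log2 scale, against -0.04, -0.05 and -0.01 over all rows. Replicates 1 and 2 lay close together in PBS and LPS, with medians of replicate 2 minus replicate 1 of 0.03 and -0.08. In IL-4 the median was 0.20, so replicate 1 was somewhat lower there. Over all rows these medians were 0.0 in PBS, -0.01 in LPS and -0.01 in IL-4. The median SD of a member was 0.69 in PBS and 0.72 in LPS but 0.11 in IL-4, where over all rows it was 0.09, 0.11 and 0.06. In a bulk sample, more cells of a type and more RNA per cell cannot be told apart.

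**Figure D1:**
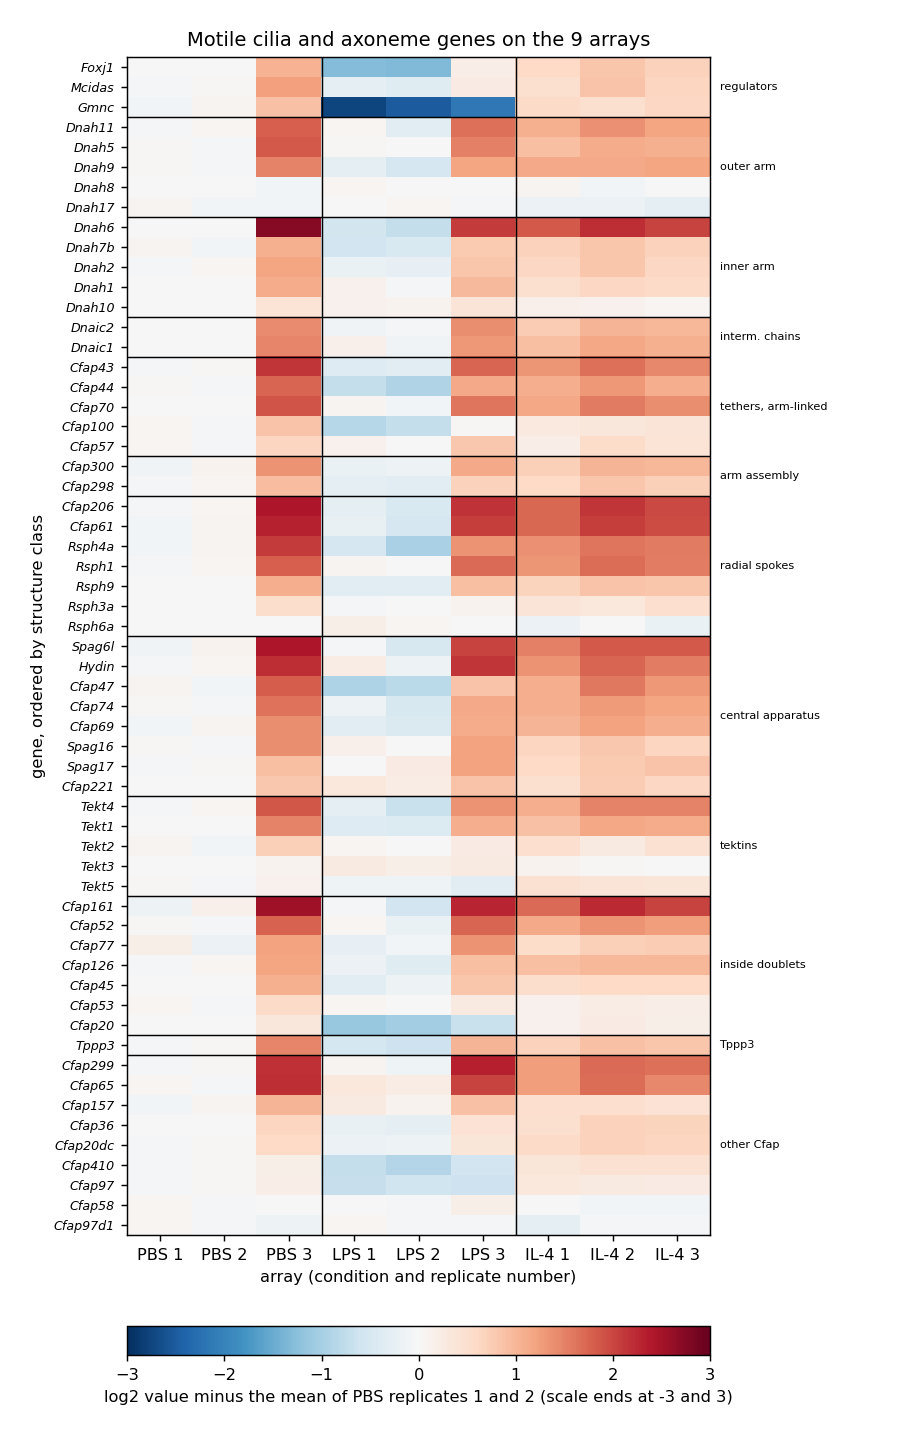
Heat map of the 59 members (rows, grouped by structure class) on the 9 arrays (columns). Colour is the log2 value minus the mean of PBS replicates 1 and 2, from -3 (blue) to 3 (red). PBS 3, LPS 3 and all 3 IL-4 arrays are red in most classes, and Gmnc is blue on all 3 LPS arrays.

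A difference over 1, that is more than a doubling, was seen in both conditions for 34 members, against 1.24% of all rows. The member just inside this bound was Foxj1, with a smaller difference of 1.04, and the member just outside was Cfap298, with 0.92. When all rows were ranked by the smaller of their differences in PBS and LPS, members took 11 of the top 50 places, 21 of the top 100 and 45 of the top 1000. The first member was Dnah6 at rank 9, and rank 1 was Bcas1, an oligodendrocyte lineage marker (3.53 in PBS and 3.34 in LPS). The differences in PBS and LPS were alike across the 59 members (Pearson's r = 0.964, across genes that share the same 6 arrays and are not independent), and r was 0.8 across all rows.

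**Figure D2:**
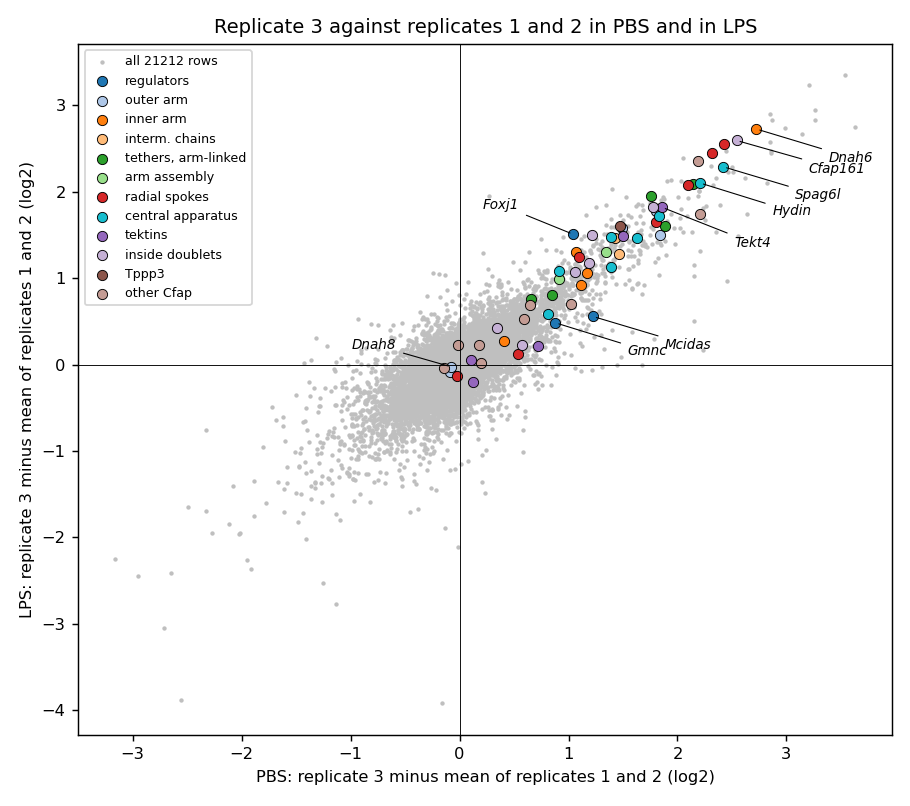
Replicate 3 minus the mean of replicates 1 and 2 (log2) in PBS (horizontal) and in LPS (vertical), for all 21212 rows (grey) and for the members by structure class (colours). Most members lie in the upper right, up to Dnah6 at 2.72 in both conditions, and a group that includes Dnah8 lies near 0.

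The regulators were higher in replicate 3 in both conditions. Foxj1, the forkhead factor of the motile cilia program, measured 9.66, 9.69 and 10.72 in PBS, 8.36, 8.35 and 9.86 in LPS and 10.27, 10.51 and 10.36 in IL-4. Mcidas, a coregulator that starts centriole amplification, measured 7.73, 7.79 and 8.98 in PBS, 7.49, 7.39 and 8.0 in LPS and 8.24, 8.61 and 8.40 in IL-4. Gmnc, which acts upstream of Mcidas, measured 8.81, 8.96 and 9.77 in PBS, 6.13, 6.38 and 6.74 in LPS and 9.47, 9.37 and 9.51 in IL-4. For Gmnc the LPS arrays did not overlap those of the other conditions, whereas for Foxj1 the array LPS 3 lay above PBS 1 and PBS 2.

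**Figure D3:**
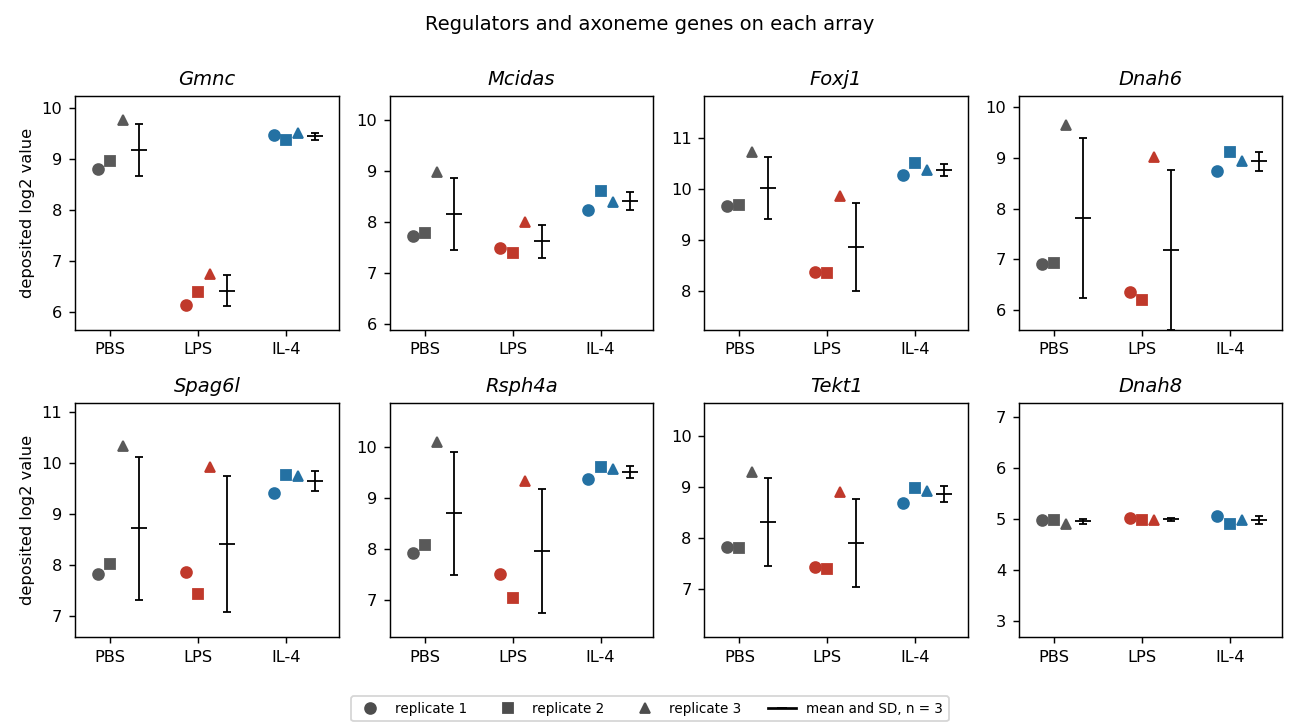
Deposited log2 values of 8 members on each array (circle, square and triangle for replicates 1, 2 and 3), with the mean and SD (n = 3) beside each condition; all vertical axes have the same span and none starts at 0. The triangles of PBS and LPS stand above the other replicates in every panel but that of Dnah8.

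Dynein heavy chains are the motors of the arms. Among 5 outer arm chains, Dnah5, Dnah9 and Dnah11, which are used in cilia, differed by 1.84, 1.49 and 1.80 in PBS. In LPS the differences of Dnah9 and Dnah11 were 1.58 and 1.78, and Dnah5 measured 6.33, 6.28 and 7.81. Dnah11 measured 5.95, 6.05 and 7.80 in PBS, 6.05, 5.67 and 7.64 in LPS and 7.07, 7.38 and 7.18 in IL-4. Dnah8 and Dnah17, the outer arm chains of sperm tails, were dim rows, in which a change could go unseen: Dnah8 lay between 4.90 and 5.05 on all 9 arrays and Dnah17 differed by -0.09 in both conditions.

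Among 5 inner arm chains the medians were 1.12 in PBS and 1.06 in LPS. Dnah6 showed the largest difference of all members, with 6.90, 6.92 and 9.64 in PBS, 6.36, 6.21 and 9.01 in LPS and 8.74, 9.12 and 8.94 in IL-4. Dnah7b, of which the genome holds near-identical copies that its probes may also detect, measured 5.85, 5.98 and 7.21 in LPS and differed by 1.07 in PBS. Dnah10, a dim row, had the smallest difference of the class, 0.40 in PBS and 0.27 in LPS. The intermediate chains Dnaic1 and Dnaic2, which anchor the outer arms, differed by 1.46 and 1.43 in PBS and by 1.28 and 1.47 in LPS.

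Radial spoke genes had medians of 1.80 in PBS and 1.64 in LPS over 7 members. Cfap206, a protein at the spoke base, measured 6.88, 7.02 and 9.37 in PBS, 6.66, 6.50 and 9.13 in LPS and 8.67, 9.10 and 8.93 in IL-4. Cfap61, also a spoke protein, differed by 2.31 and 2.45, and Rsph4a, a spoke head protein of cilia, by 2.10 and 2.08. Its sperm counterpart Rsph6a, a dim row, differed by -0.02 and -0.13.

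All 8 central apparatus genes were higher in replicate 3, with medians of 1.51 in PBS and 1.47 in LPS. Spag6l, a protein of the central pair, measured 7.82, 8.01 and 10.33 in PBS, 7.86, 7.42 and 9.93 in LPS and 9.41, 9.76 and 9.75 in IL-4. Hydin, which forms a projection of the central pair, measured 5.88, 5.99 and 8.14 in PBS, 6.17, 5.78 and 8.07 in LPS and 7.27, 7.67 and 7.46 in IL-4. In each case replicate 3 of PBS and LPS stood above every IL-4 array, and replicates 1 and 2 below. Spag16 and Spag17, both dim, differed by 1.39 and 0.91 in PBS and by 1.13 and 1.08 in LPS. The smallest difference was that of Cfap221, also dim, with 0.82 and 0.58.

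The 7 proteins inside the doublet microtubules had medians of 1.19 in PBS and 1.18 in LPS. They ran from Cfap161 (2.54 and 2.59) and Cfap52 (1.78 and 1.83) to Cfap20 (0.34 and 0.42) and Cfap53, a dim row (0.57 and 0.23). Tektins, filaments of the doublet wall, divided. Tekt4 differed by 1.86 and 1.82, and Tekt1 measured 7.82, 7.80 and 9.30 in PBS and 7.42, 7.39 and 8.90 in LPS. Tekt5 differed by 0.12 and -0.20. Tekt2 (0.72 and 0.21) and Tekt3 (0.11 and 0.05) were dim rows. The 5 tethers and arm-linked proteins had a median of 1.75 in PBS, led by Cfap43 (2.14 and 2.09), with Cfap57 lowest (0.65 and 0.76). The arm assembly proteins Cfap300 and Cfap298 differed by 1.35 and 0.92 in PBS and by 1.30 and 0.99 in LPS. Tppp3, a tubulin-binding protein abundant in ciliated cells, measured 9.96, 10.04 and 11.47 in PBS, 9.47, 9.37 and 11.03 in LPS and 10.70, 10.88 and 10.82 in IL-4.

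The 9 remaining Cfap genes had medians of 0.59 in PBS, the lowest of the 12 classes, and 0.52 in LPS, where the tektins were lower (0.21). Cfap299 and Cfap65 were among the largest differences, with 2.21 for Cfap65 in PBS and 2.35 for Cfap299 in LPS. Cfap97d1, a dim row, lay at -0.14 and -0.04. Over all classes, 4 members were above both other replicates in neither condition, namely Dnah8, Dnah17, Rsph6a and Cfap97d1, and 3 in only 1 condition, Cfap58, Cfap97 and Tekt5. Of the 59 members, 13 were dim rows, where small differences are hard to see.

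The IL-4 arrays fell between the replicates of PBS. For 53 members all 3 IL-4 arrays exceeded PBS 1 and PBS 2 (27.7% of all rows did so), and for 48 members (81.4%, against 7.87% of rows) they also stayed below PBS 3. The median member was 0.73 above the mean of PBS 1 and 2 and 0.41 below PBS 3 (a difference of -0.41). The linear values summed over members gave the same order, with 10739, 11067 and 26580 in PBS, 8148, 7736 and 19549 in LPS and 18454, 21244 and 20293 in IL-4. Replicates 1 and 2 of PBS and LPS thus had the 4 lowest sums.

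How each condition changed the members was tested next, with all rows in 1 fit of the 9 arrays (limma, adjusted over all rows, called at an adjusted p under 0.05). The 3 comparisons share their arrays in pairs. In LPS against PBS, 5 members were lower and 1 higher, where 22.4% of all rows were called lower and 15.4% higher. Gmnc fell by 2.76 on the log2 scale, 6.79-fold (SE 0.24, limma adjusted p = 3.68e-05), and was lower in all 3 replicate numbers, by values from -2.58 to -3.03. The others that fell were Cfap20 (-1.07 ± 0.14 SE), Cfap410 (-0.79 ± 0.09), Cfap97 (-0.71 ± 0.07) and Tekt5 (-0.24 ± 0.07), and Tekt3, a dim row, rose by 0.20 ± 0.05, which was not called under quantile normalization (0.11, limma adjusted p = 0.187). Cfap20, Cfap410 and Cfap97 had replicate 3 differences of at most 0.42.

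The pairing of LPS and PBS arrays by replicate number was read from the same values and rested mostly on number 3. With the number as a block over these 6 arrays, 29 members were lower and 1 higher, against 28.8% and 18.6% of all rows. The members were proposed for being high in replicate 3 of both conditions, and the block takes up that spread. This count is thus set in part by that choice and is a description. With the block over all 9 arrays, which also ties in the IL-4 arrays whose numbers did not pair, 7 members were lower and 1 higher, against 25.1% and 17.2% of rows. The rise in calls thus depended on the form of the block. Foxj1, at -1.16 ± 0.43 (SE) with a limma adjusted p of 0.0631 without the block, had an adjusted p of 7.43e-04 with the block of 6 arrays and of 0.0174 with that of 9. Mcidas, at -0.54, had an adjusted p of 0.226 without a block, 0.0317 with 6 arrays and 0.119 with 9. Dnah6, at -0.63, had values of 0.622, 6.50e-04 and 0.424, and Spag6l, at -0.32, values of 0.785, 0.0919 and 0.636. Without PBS 3 and LPS 3, 22 members were lower and 2 higher, against 28.3% and 19.1% of rows. These arrays were left out because the members were known to be high on them, so this count is also a description. Within the replicate numbers, LPS minus PBS had medians over members of -0.11, -0.24 and -0.24, and of -1.29, -1.34 and -0.99 over the 3 regulators. LPS was lower in all 3 numbers for 31 members (52.5%, against 37% of rows) and higher for 4 (6.78%, against 31.9%).

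**Figure D4:**
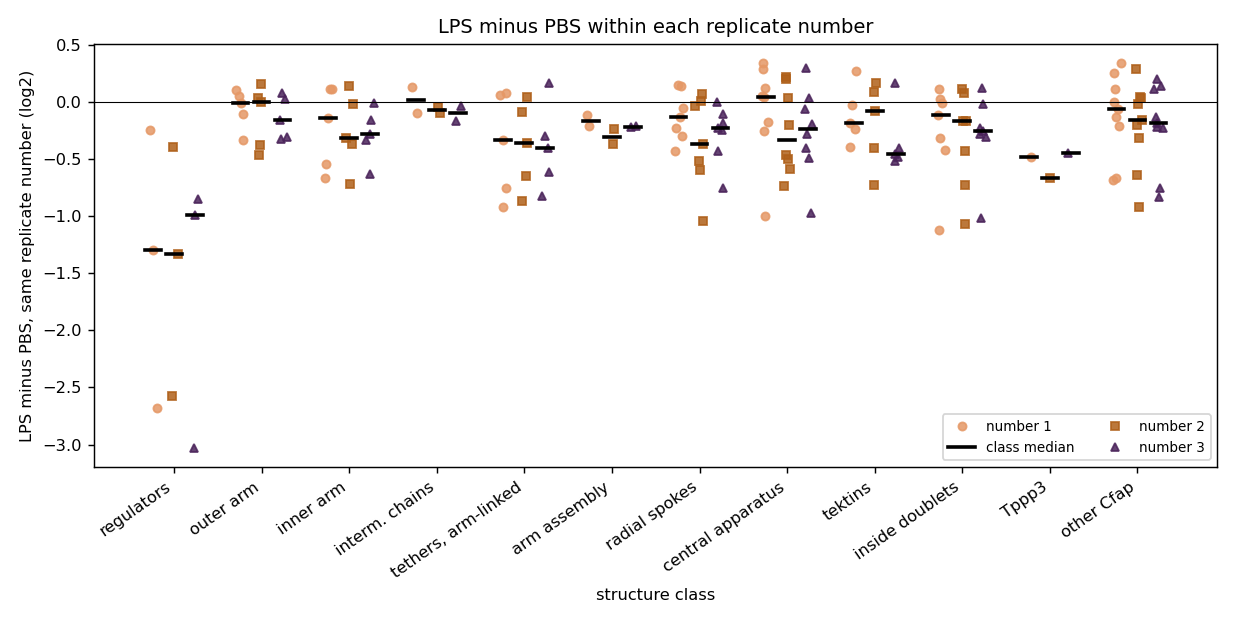
LPS minus PBS (log2) within replicate numbers 1, 2 and 3 for each member, by structure class, with class medians as bars. The regulators are lowest, with Gmnc from -2.58 to -3.03, while most axoneme classes have medians between -0.5 and 0.1.

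In IL-4 against PBS, 2 members were higher, Tekt5 (0.36 ± 0.07 SE, limma adjusted p = 0.0269) and Cfap410 (0.37 ± 0.09, adjusted p = 0.0488), against 3.35% of all rows. By limma 0 members were lower, against 2.05% of rows, and at an unadjusted p under 0.05 there were 4 higher and 1 lower. Without PBS 3 and LPS 3, 52 members were higher and 0 lower by limma (52 and 1 at an unadjusted p under 0.05), against 16.6% and 13.5% of rows. Those 2 arrays were left out because these genes were known to be high on them, so this count is set in part by that choice and is given as a description. Dnah6, for example, was at 1.11 ± 0.89 (SE, limma adjusted p = 0.514) with all arrays and at 2.02 without the 2.

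In LPS against IL-4, 10 members were lower and 3 higher, against 25.9% and 21% of rows. Gmnc was lower by 3.03 (a log2 difference of -3.03 ± 0.24 SE, limma adjusted p = 2.03e-05) and Foxj1 differed by -1.52 ± 0.43 (adjusted p = 0.0189). Cfap97, Cfap410, Cfap20 and Tekt5 were again lower, as were Cfap20dc, Cfap100, Cfap36 and Rsph3a. The 3 that were higher, Tekt3, Dnah17 and Rsph6a, changed by 0.20, 0.21 and 0.20. All 3 are dim rows, and under quantile normalization none of them passed the test (0.05, 0.10 and 0.08, limma adjusted p = 0.534, 0.222 and 0.294). Without PBS 3 and LPS 3 the counts were 52 lower and 3 higher, against 32.3% and 29.8% of rows, again a description, since leaving out LPS 3 lowers the LPS mean of the members chosen for being high on it.

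Genes of the same program outside the rule were also higher in replicate 3. Of 43 measured of 51 listed, 40 were above both other replicates in PBS and in LPS, with medians of 1.22 and 1.18. Ak7, an adenylate kinase of the axoneme, had the largest mean difference (2.85 and 2.90). In LPS against PBS 3 of these 43 genes (6.98%) fell by limma, where 22.4% of all rows fell, and 29 (67.4%) fell with the replicate block over 6 arrays, where 28.8% of rows did. The count with the block over all 9 arrays, which was far smaller for the members, is not given for these genes. Rfx3, a factor that binds ciliary promoters, was 8.80, 8.80 and 9.57 in PBS, 7.51, 7.54 and 8.40 in LPS and 9.25, 9.37 and 9.29 in IL-4. It fell by 1.24 in LPS against PBS (SE 0.27, limma adjusted p = 0.00682), as did its relative Rfx2 by 0.62 and the arm assembly factor Dnaaf2 by 0.29. Myb, an early factor of multiciliated cells, was at -1.50 with a limma adjusted p of 0.0889, and of 2.15e-04 with the block over 6 arrays.

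Promoters were searched for the letters that RFX and forkhead factors are known to bind and, apart from these, for CCAAT. RefSeq promoters (GRCm38.p6, 250 bases before to 50 after a transcript's start) were at hand for 50 members and for 15059 genes of the array. They were absent for Cfap157, Cfap299, Cfap53, Cfap65, Cfap97, Foxj1, Rsph1, Rsph4a and Tppp3. In all 7 forms were searched on both strands, with counts in view as forms were added, so the shares are descriptions only. GTTGCC, the core of an RFX site, was held by 19 members (38%) and by 14% of genes. Of members with a difference over 1 in both conditions 11 of 28 held it, and of the others 8 of 22.

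An RFX site is often a facing pair of such cores, and the forms of it gave different counts. GTTNCC and GGNAAC with 1, 2 or 3 free bases between them was held by 2 members (4%) and 0.91% of genes. A looser form, GTTNCC and GNAAC with 3 free bases between, was held by 8 members (16%) and 1.03% of genes. These forms can overlap each other and GTTGCC. The forkhead letters GTAAACA were held by 4 members (8%) and 3.53% of genes, and CCAAT by 18 (36%) and 42.1%.

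These windows of 80 bases lie wholly before the gene, read 5′ to 3′ on its strand, and show the core (GTTGCC or its reverse complement GGCAAC, in capitals) in members with large, intermediate and small replicate 3 differences: Cfap44 (chr16:44394633-44394712, plus strand; 1.75 in PBS and 1.95 in LPS), Cfap300 (chr9:8042955-8043034, minus strand; 1.35 and 1.30), Cfap298 (chr16:90934987-90935066, minus strand; 0.92 and 0.99) and Cfap58 (chr19:47937616-47937695, plus strand; -0.02 and 0.22).
Cfap44: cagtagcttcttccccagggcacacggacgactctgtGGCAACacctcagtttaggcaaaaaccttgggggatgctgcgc
Cfap300: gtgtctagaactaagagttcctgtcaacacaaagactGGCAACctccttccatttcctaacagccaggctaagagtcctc
Cfap298: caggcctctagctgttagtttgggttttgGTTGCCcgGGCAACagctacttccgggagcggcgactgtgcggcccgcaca
Cfap58: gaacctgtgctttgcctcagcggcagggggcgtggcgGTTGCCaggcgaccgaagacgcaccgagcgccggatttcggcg
Cfap298 held a facing pair. Cfap58, a dim row in which replicate 3 was above both others in LPS only, held the core as well.

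Markers of other cells were read on the same arrays. All 11 ependymal markers outside the axoneme were above both other replicates in PBS and in LPS, with medians of 0.69 and 0.91. Their summed linear values were 17377, 17841 and 23495 in PBS, 17191, 17248 and 23064 in LPS, and 19801, 21012 and 20525 in IL-4. S100b and Tmem212 were dim. Mlf1 measured 6.34, 6.62 and 8.13 in PBS, whereas Vim, which many cells express, lay between 12.80 and 12.95 on all arrays.

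Other lists also differed in replicate 3. Oligodendrocyte lineage markers had medians of 0.98 in PBS and 0.99 in LPS, with 10 of 12 above both others in each condition, and summed values from 3261 to 7050 in PBS, 2770 to 6027 in LPS and 3784 to 4652 in IL-4; Mog and Ugt8a were dim. Astrocyte markers had medians of 0.64 and 0.52, with 8 of 12, and sums from 14730 to 21106, 13976 to 19218 and 17547 to 17915; Gjb6 and S100b were dim. Microglial markers had medians of 0.38 and 0.14, with 10 of 16, and sums from 24165 to 32404, 19128 to 21778 and 26092 to 27489. The largest microglial difference was that of Fcrls, 2.82 in PBS and 2.10 in LPS, which stood at rank 27 of all rows in the ranking above. The astrocyte and ependymal lists share Aqp4, Slc1a3 and S100b.

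Choroid plexus markers had medians of 0.19 and 0.04, with 6 of 11 above both others, and Kl, Clic6, Slc4a5 and Kcne2 were dim. Neurons (-0.05 and -0.06), fibroblasts and meninges (-0.19 and -0.14) and endothelium (-0.06 and -0.11) showed no such shift in the median. Of 14 spermatid genes 13 were dim and 0 were above both others in each condition, as with the sperm-tail paralogs among the members. Genes of the primary cilium, the immotile cilium of most cells, and of transport in cilia had medians of 0.56 and 0.59. Of these, 17 of 19 (89.5%) were above both others in each condition, a share like that of the members (88.1%). The part of these cell types in the replicate 3 difference was not tested.

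**Figure D5:**
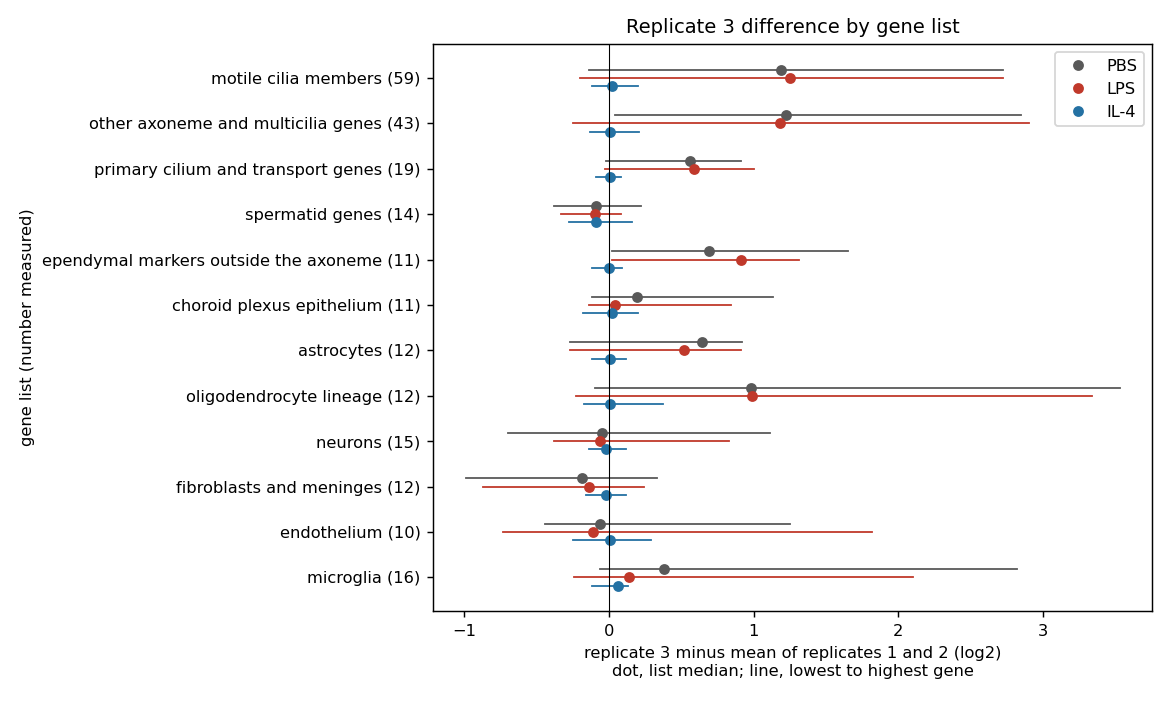
Replicate 3 minus the mean of replicates 1 and 2 (log2) for the members and 11 other gene lists, in PBS, LPS and IL-4 (dot, median; line, lowest to highest gene; the number measured in brackets). The members and the other axoneme genes have the highest medians, spermatid genes lie near 0, and all lists lie near 0 in IL-4.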

How the data were processed

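Total RNA of 9 samples, 3 each for PBS, LPS and IL-4 as the labels group them, was hybridized to Affymetrix Mouse Exon 1.0 ST arrays. The deposited values are log2 expression that the authors made with RMA and affy (versions not given in the sources used here): background correction, quantile normalization and summary of probes per gene, which removes differences in total signal between arrays. The number of arrays limits the precision.

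A gene symbol was found for 18786 of 21212 rows, several for 6 and none for 2420, and the row of 1 member was named through another identifier than its own. Members, structure classes and other lists were chosen with earlier results of these data known. Named genes were the 8 listed by name, the 2 largest and the smallest replicate 3 difference of each class, and called members up to 10 by adjusted p. Other genes named, among them Rsph4a, Dnah8, Dnah9, Cfap53, Cfap58, Tekt2, Ak7, Rfx3, Myb, Mlf1, Fcrls, Tyrobp and Vim, were picked after their values were seen.

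Conditions were compared with limma 3.58.1 (lmFit and eBayes, R 4.3.3, residual df 6, prior df 2.38) over all rows and arrays, with Benjamini-Hochberg adjustment. The fit was tested on simulated data with independent arrays, so that test does not cover the shared replicate 3 shift seen here. Same-numbered arrays of LPS and PBS deviated together from their condition means (r = 0.578, 0.651 and 0.8), so those numbers were taken as pairs; the values were 0.339, -0.255 and 0.0752 for IL-4 with PBS and 0.289, -0.228 and 0.0593 for LPS with IL-4, which were not. Numbers 1 and 2 were hardly told apart (LPS 2 with PBS 1, 0.605), so the pairing rests mostly on number 3. Alternatives were the t-test of the methods, fits of 6 arrays, a trend, robust or array-weighted fit, quantile normalization, subtracted array medians, no dim rows, a replicate block, and left-out arrays. Tables and plots used Python 3.11.15, numpy 2.4.6, pandas 2.3.3 and matplotlib 3.10.9.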

Additional observations from a re-analysis of the deposited data

How the results depend on the processing

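The medians of the replicate 3 differences kept their direction under quantile normalization, subtracted array medians and removal of dim rows (1.15 to 1.44 in PBS and 1.20 to 1.48 in LPS, highest without the dim rows). In LPS against PBS, 6 members were called in all, 30 with the replicate block over 6 arrays but 8 with it over all 9, 24 without PBS 3 and LPS 3, and 4 to 7 when arrays were left out in turn. In IL-4 against PBS, where 2 were called, the count was 0 with the methods' test, with subtracted medians and with the replicate block over 6 arrays (3, 4 and 5 higher and 0, 1 and 1 lower at an unadjusted p under 0.05), 1 with a trend, 51 with array weights, 52 without PBS 3 and LPS 3, and 0 to 6 when arrays were left out (6 without PBS 3). In LPS against IL-4, 13 were called, 3 of them higher. The count was 8 with the methods' test (2 higher), 8 with quantile normalization (0 higher) and 15 with subtracted medians (6 higher). It was 52 with array weights, and 28 with the replicate block over all 9 arrays but 15 over 6. Without PBS 3 and LPS 3 it was 55, and when arrays were left out it was 5 to 35 (35 without LPS 3). The cause was not tested. Gmnc, Cfap20, Cfap410 and Cfap97 kept their calls in LPS against PBS in all 17 alternatives, Tekt3 lost its call in 4 and Tekt5 in 9. Of 352 values of single genes under an alternative, 270 kept their call, 82 lost it and 0 changed direction.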
